A study of Mus musculus with 24 samples.

Results

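The 9 genes described here are urothelial and squamous-epithelial genes read in whole mouse kidney: the uroplakins Upk1a, Upk1b, Upk2, Upk3a and Upk3b, the cornified envelope genes Sprr1a and Sprr2f, the transcription factor gene Trp63 and the surface antigen gene Psca. They form a list named for these known roles, chosen with earlier results of these data known, and all 9 were found among the 35413 genes of the annotation. Bulk RNA was sequenced in 24 kidney libraries of 2 separate experiments. In the knockout experiment, mice labelled as Enpp1 knockout (EKO, n = 6) carried floxed ENPP1 alleles (ENPP1 fl/fl) and CAG-ERCre, a tamoxifen-inducible Cre recombinase driven by a ubiquitous promoter, and ate an adenine diet for 14 days. Mice labelled wild type (WT, n = 6) were CAG-ERCre-negative and ate the same diet for the same time. A chow group (n = 4) received no adenine. In the antibody experiment all mice ate adenine for 14 days and received a monoclonal antibody to human ENPP1 (hENPP1 mAb, n = 4) or control IgG (n = 4), each at 50 mg/kg by intraperitoneal injection, 2 injections per week.

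Dietary adenine is converted to a poorly soluble product that forms crystals in the tubules, and it serves as a model of kidney injury. Only mice labelled as knockout carried Cre, so Cre and the deletion cannot be told apart. The genotype of the chow group, whether WT and chow mice received tamoxifen, the sex, age and strain of the mice, and whether the mice given the antibody carried a human ENPP1 gene were not found among the labels used here. Libraries were taken to be from different mice; should any share a mouse, the spread behind the p-values may be technical. Gene totals were 21049722 to 28209908 reads per library in the knockout experiment and 43880608 to 50557594 in the antibody experiment. Enpp1, the targeted gene, had 21.6 to 24.7 CPM (scaled read counts relative to library size) in EKO-labelled libraries (median 22.4), against 20.9 to 24.9 CPM in WT libraries (median 21.3) and 49.9 to 55.8 CPM in chow libraries (median 55.5). EKO-labelled and WT libraries overlapped, with a log2 difference of 0.05 ± 0.05 (SE; edgeR adjusted p = 0.466). Summed reads therefore do not separate these labels, and which exons lie between the loxP sites is not given, so a reading of "EKO" below is a reading of the label. All 8 kidney-defining genes checked, among them Lrp2 and Umod, had reads in every group.

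Uroplakins are membrane proteins of urothelium, the stratified lining of the renal pelvis, ureter and bladder. The tetraspanins encoded by Upk1a and Upk1b each pair with a single-pass partner, Upk1a with Upk2 and Upk1b with Upk3a or Upk3b, and the pairs assemble into plaques on the surface of the superficial umbrella cells. Small proline-rich (SPRR) proteins, encoded by Sprr1a, Sprr2f and their relatives, are cross-linked by transglutaminases into the cornified envelope of squamous cells, and several of them are also induced in injured simple epithelia. Trp63 encodes p63, a p53-family factor that maintains the basal cells of stratified epithelia, and Psca encodes a lipid-anchored surface protein of the Ly6 family found in urothelium, stomach and prostate.

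Sequences are shown for the small proline-rich genes, because some Sprr2 copies are near-identical and their reads had to be divided between genes. A further reason is that Sprr1a and Sprr2f both moved with adenine. The first 60 coding bases of Sprr2f and 4 neighbours of the same cluster on chromosome 3 are given below, 5′ to 3′, from the GENCODE M21 annotation on GRCm38; capitals mark the bases that differ from Sprr2f at the same position.
Sprr2f: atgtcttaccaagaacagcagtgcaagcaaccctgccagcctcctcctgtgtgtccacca
Sprr2g: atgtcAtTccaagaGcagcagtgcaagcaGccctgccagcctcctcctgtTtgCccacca
Sprr2a2: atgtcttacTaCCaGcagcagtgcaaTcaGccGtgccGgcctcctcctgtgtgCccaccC
Sprr2d: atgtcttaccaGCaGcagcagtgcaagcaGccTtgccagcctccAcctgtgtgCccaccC
Sprr2e: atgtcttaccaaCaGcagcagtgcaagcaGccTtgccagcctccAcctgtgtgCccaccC
Over these 60 bases Sprr2g differed from Sprr2f at 6 positions, Sprr2e at 7, Sprr2d at 8 and Sprr2a2 at 10. Over whole transcripts, 7.95% of the distinct 31-base words of Sprr2f also occurred in another gene, most of them in Sprr2e. The other 8 members shared none of their 31-base words with another gene. Sprr2a2 shared 97.8% of its words with Sprr2a1, so those copies were read as a group (Sprr2a1 to Sprr2a3).

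Promoter sequences from RefSeq (GRCm38.p6, 250 bases before to 50 bases after the gene start) were matched for 5 of the 9 members: Upk1a, Upk3a, Upk3b, Sprr1a and Sprr2f. The windows of Sprr1a and Sprr2f, the 2 members with the largest rise on adenine, are given 5′ to 3′ on the strand of the gene, with capitals on matches to the AP-1 motif TGANTCA (searched on both strands) and to the TATA box TATAAA (sense strand); neither motif overlapped the other.
Sprr1a, chr3:92485832-92486131, minus strand: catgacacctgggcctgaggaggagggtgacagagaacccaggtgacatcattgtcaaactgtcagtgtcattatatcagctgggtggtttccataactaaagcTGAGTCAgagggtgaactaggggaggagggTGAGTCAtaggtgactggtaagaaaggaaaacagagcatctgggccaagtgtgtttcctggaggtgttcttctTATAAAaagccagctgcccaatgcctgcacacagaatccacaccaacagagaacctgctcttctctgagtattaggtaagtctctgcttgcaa
Sprr2f, chr3:92364937-92365236, plus strand: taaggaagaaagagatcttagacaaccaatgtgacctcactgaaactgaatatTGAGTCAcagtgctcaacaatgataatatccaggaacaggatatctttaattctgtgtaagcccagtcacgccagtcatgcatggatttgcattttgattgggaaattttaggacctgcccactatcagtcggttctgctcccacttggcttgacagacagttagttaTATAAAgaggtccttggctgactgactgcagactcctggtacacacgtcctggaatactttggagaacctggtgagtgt
Sprr1a held AP-1 letters 146 and 116 bases upstream of its start and a TATA box 43 bases upstream. Sprr2f held AP-1 letters 197 bases upstream and a TATA box 29 bases upstream. Of all 32851 promoter windows, 7.81% held the AP-1 letters and 8.32% the TATA box. The windows of Upk1a, Upk3a and Upk3b held neither motif. For the GATA motif AGATAA, searched on both strands and present in 11.2% of windows, Upk3a had 1 match, 188 bases upstream, and the other 4 windows had none. These are matches of letters, and no binding was measured.

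Differences are reported as log2 changes from edgeR's quasi-likelihood test, fitted to all 16 libraries of the knockout experiment or all 8 of the antibody experiment and called at a Benjamini-Hochberg adjusted p under 0.05 over all genes tested. The 3 comparisons of the knockout experiment share groups in pairs and so are not independent of each other. Adenine and the labels moved much of the transcriptome: 84.9% of the 16959 genes tested were called for WT adenine against chow, 80.1% for EKO adenine against chow and 46.4% for EKO adenine against WT adenine, and 55.3% of 16404 genes for hENPP1 mAb against IgG. All 9 members passed the filter on low counts in the knockout experiment, and 9 were called for WT adenine against chow (3 higher, 6 lower; 44.0% of all genes were higher and 40.9% lower). For EKO adenine against chow 7 members were called, 2 higher and 5 lower (40.2% and 39.9% of all genes). For EKO adenine against WT adenine 5 members were called, all higher (25.1% of all genes were higher). For hENPP1 mAb against IgG 5 members passed the filter on low counts and 4 were called, all lower (28.0% of all genes were lower). The balance of directions over all genes depends on the scaling: with total reads as the only scaling, the share of calls that were higher was 75.1% for WT adenine against chow (51.8% with TMM), 78.5% for EKO adenine against chow (50.2%), 37.1% for EKO against WT (54.1%) and 22.2% for hENPP1 mAb against IgG (49.3%).

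Upk1b, the tetraspanin partner of Upk3a and Upk3b, was 0.406, 1.58 and 2.00 CPM in EKO adenine libraries (lowest, median, highest), against 0, 0.121 and 1.44 CPM in WT adenine libraries and 3.84, 3.93, 3.86 and 4.71 CPM in the 4 chow libraries. In CPM every adenine library lay below every chow library, and 4 of 6 EKO-labelled libraries lay above every WT library. The separation from chow rests on the composition scaling. In the deposited TPM, the chow range was 1.77 to 3.23. EKO replicates 1 (2.20), 3 (2.37), 4 (2.17) and 5 (2.16) and WT replicate 5 (1.81) lay within it. Upk1b rose by 1.63 ± 0.57 on the log2 scale in EKO-labelled libraries relative to WT (edgeR adjusted p = 0.0262). It fell by 3.20 in WT adenine relative to chow (SE 0.57, edgeR adjusted p = 4.00e-05) and by 1.57 in EKO adenine relative to chow (SE 0.50, edgeR adjusted p = 0.00817). In these bulk samples, fewer urothelial cells in the piece of kidney and less RNA per cell cannot be told apart. WT replicate 5, the WT library richest in this transcript, weighed on the contrast with WT: without it the log2 change of Upk1b was 2.54 (edgeR adjusted p = 0.00145), while the call ended with DESeq2 (adjusted p = 0.0569) and when any of 5 other libraries was left out (edgeR adjusted p at most 0.0558). The call against chow in EKO adenine ended with DESeq2 (adjusted p = 0.0711), with an offset for transcript length (edgeR adjusted p = 0.0790) and with total reads as the only scaling (edgeR adjusted p = 0.0717).

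Upk3a, a single-pass partner of Upk1b, had the widest separation of the uroplakins. It was 0.111, 1.05 and 1.48 CPM in EKO adenine libraries (lowest, median, highest), against 0, 0.131 and 0.793 CPM in WT adenine libraries and 4.80, 4.14, 4.16 and 5.07 CPM in chow libraries. In EKO-labelled libraries it was above every WT library in 5 of 6, and no adenine library reached the chow range. The log2 change of Upk3a was 1.98 ± 0.55 for EKO against WT (edgeR adjusted p = 0.00674), and it fell by 4.17 in WT adenine (SE 0.52, edgeR adjusted p = 4.48e-07) and by 2.18 in EKO adenine (SE 0.44, edgeR adjusted p = 0.000154) relative to chow. Without WT replicate 5 the change of Upk3a was 2.87 for EKO against WT and -5.05 for WT against chow.

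Upk2, the partner of Upk1a, had the fewest reads of the 5 uroplakins in each group of the knockout experiment. Upk2 stood at 0.111, 0.690 and 0.953 CPM in EKO adenine libraries (lowest, median, highest), against 0, 0.151 and 0.540 CPM in WT adenine libraries and 1.39, 1.83, 1.34 and 0.912 CPM in chow libraries, with 94, 31 and 109 reads in all in those groups. In CPM, WT libraries lay below every chow library, while 2 of 6 EKO-labelled libraries reached into the chow range. In the deposited TPM, the chow range was 0.655 to 1.332. WT replicate 5 (0.682) and EKO replicates 3 (1.046), 4 (1.165), 5 (1.235) and 6 (0.713) lay within it. The log2 change of Upk2 was 1.60 ± 0.56 for EKO against WT (edgeR adjusted p = 0.0255), a call lost when any of 5 single libraries was left out (adjusted p at most 0.0583). Upk2 fell by 2.77 in WT adenine (SE 0.56, edgeR adjusted p = 0.000162) and by 1.17 in EKO adenine (SE 0.49, edgeR adjusted p = 0.0350) relative to chow. The second of these calls was lost when any of 6 libraries was left out (adjusted p at most 0.118), and without WT replicate 5 the first change was -3.41 and that for EKO against WT 2.25.

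Upk3b, the other partner of Upk1b, is expressed in mesothelium as well as in urothelium. It was 0.516, 1.78 and 6.23 CPM in EKO adenine libraries (lowest, median, highest), against 0.377, 0.681 and 0.973 CPM in WT adenine libraries and 6.91, 6.03, 3.56 and 5.88 CPM in chow libraries. In CPM, EKO replicate 3 alone reached the chow range, and 5 of 6 EKO-labelled libraries exceeded every WT library. In the deposited TPM, EKO replicates 5 (1.01) and 6 (0.746) also lay above the lowest chow library (0.645). The log2 change of Upk3b was 1.81 ± 0.46 for EKO against WT (edgeR adjusted p = 0.00371) and 1.24 without EKO replicate 3 (adjusted p = 0.0114). It fell by 3.02 in WT adenine (SE 0.48, edgeR adjusted p = 9.52e-06) and by 1.21 in EKO adenine (SE 0.42, edgeR adjusted p = 0.0136) relative to chow, the last call ending without chow replicate 1 (adjusted p = 0.0508).

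Upk1a, the tetraspanin partner of Upk2, did not share that pattern. It was 1.44, 2.18 and 2.61 CPM in EKO adenine libraries (lowest, median, highest), against 1.93, 2.19 and 2.56 CPM in WT adenine libraries and 3.60, 3.62, 3.56 and 3.395 CPM in chow libraries. The 2 adenine groups overlapped fully in range, and all 12 adenine libraries were below all 4 chow libraries. For EKO against WT the log2 change of Upk1a was -0.07 with a 95% interval of -0.34 to 0.20 (edgeR adjusted p = 0.702). It fell by 0.68 in WT adenine (SE 0.14, edgeR adjusted p = 0.000162) and by 0.75 in EKO adenine (SE 0.14, edgeR adjusted p = 7.30e-05) relative to chow. These 2 falls rest on the composition scaling: with total reads as the only scaling, Upk1a changed by -0.04 (edgeR adjusted p = 0.819) and -0.18 (adjusted p = 0.268). In the deposited TPM, which carry no such scaling, Upk1a averaged 1.88 ± 0.38 in EKO adenine (SD, n = 6), 2.10 ± 0.26 in WT adenine (n = 6) and 1.83 ± 0.08 in chow (n = 4).

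Psca, the Ly6-family surface antigen, gave the largest difference between the 2 adenine groups among the 9 genes and also the widest spread. It was 0.701, 4.68 and 21.3 CPM in EKO adenine libraries (lowest, median, highest), against 0.670, 1.01 and 1.37 CPM in WT adenine libraries and 14.8, 14.5, 4.35 and 9.98 CPM in chow libraries. In CPM, all WT libraries were low, 5 of 6 EKO-labelled libraries were above them, and EKO replicate 3 was above every chow library. In the deposited TPM, EKO replicates 3 (37.25) and 5 (19.8) both lay above the chow range of 4.06 to 14.67. The log2 change of Psca was 2.89 ± 0.60 for EKO against WT (edgeR adjusted p = 0.000692) and 2.24 without EKO replicate 3 (adjusted p = 0.00166). Psca fell by 3.41 in WT adenine relative to chow (SE 0.63, edgeR adjusted p = 6.27e-05). For EKO adenine against chow its change was -0.51 with an interval of -1.64 to 0.61 (edgeR adjusted p = 0.386), or -1.17 without EKO replicate 3 (adjusted p = 0.0272).

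Sprr1a, a cornified envelope precursor gene, was high in every adenine library. It was 28.7, 36.5 and 52.9 CPM in EKO adenine libraries (lowest, median, highest), against 25.5, 38.7 and 54.6 CPM in WT adenine libraries and 2.59, 2.10, 3.66 and 2.23 CPM in chow libraries. The adenine groups overlapped, and the lowest adenine library was far above the highest chow library. Sprr1a rose by 3.89 ± 0.27 on the log2 scale in WT adenine, 14.9-fold with an interval of 10.1 to 21.97 (edgeR adjusted p = 7.59e-11), and by 3.83 ± 0.27 in EKO adenine (edgeR adjusted p = 1.66e-10), both relative to chow. Between EKO and WT the log2 change of Sprr1a was -0.06 with an interval of -0.41 to 0.29 (edgeR adjusted p = 0.783).

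Sprr2f, a cornified envelope gene of the Sprr2 cluster, was 10.3, 18.2 and 22.4 CPM in EKO adenine libraries (lowest, median, highest), against 12.6, 16.6 and 17.7 CPM in WT adenine libraries and 0, 0.0524, 0 and 0 CPM in chow libraries. The chow group held 1 read of Sprr2f in all, against 2582 reads in EKO adenine and 2512 in WT adenine. The ratio to chow was 1328 in EKO adenine (95% exact interval 238 to 52480) and 1280 in WT adenine (229 to 50560), intervals that cover counting error only. Between EKO and WT the log2 change of Sprr2f was 0.06 with an interval of -0.28 to 0.40 (edgeR adjusted p = 0.788).

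Adenine changed which Sprr2 copies were read, not only how many reads the cluster had. The cluster summed to 19.6, 35.7 and 43.8 CPM in EKO adenine (lowest, median, highest), 23.1, 31.3 and 37.9 CPM in WT adenine, and 13.3, 16.9 and 16.9 CPM in chow. In chow, Sprr2a1 to Sprr2a3 took 98.8% to 99.4% of Sprr2 reads and Sprr2f at most 0.394%. In WT adenine libraries Sprr2f took 46.6% to 61.9%, Sprr2g 32.8% to 50.3% and Sprr2a1 to Sprr2a3 only 2.76% to 15.1%; in EKO adenine libraries the Sprr2a share was 8.10% to 30.98%. Sprr2a2, which was assigned most reads of its near-identical group, moved as Upk1b did and, relative to chow, opposite to Sprr2f: its log2 change was 1.76 ± 0.39 for EKO against WT (edgeR adjusted p = 0.00121) and -2.94 ± 0.41 for WT adenine against chow (edgeR adjusted p = 1.79e-06). Sprr2g, the copy closest to Sprr2f among the 4 shown above, rose by 6.78 ± 0.39 in WT adenine relative to chow (edgeR adjusted p = 4.19e-12) and fell by 0.49 in EKO relative to WT (SE 0.17, edgeR adjusted p = 0.0229). All Sprr2 genes outside these copies, Sprr2e among them, held at most 0.811% of the cluster's reads in any adenine library of the knockout experiment.

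Trp63, the basal-cell regulator, was low in all groups of the knockout experiment. It was 0.806, 1.31 and 1.66 CPM in EKO adenine libraries (lowest, median, highest), against 0.796, 1.43 and 1.91 CPM in WT adenine libraries and 1.01, 0.943, 0.792 and 0.811 CPM in chow libraries. The ranges overlapped, with 5 of 6 libraries of each adenine group at or above the highest chow library. Trp63 rose by 0.63 ± 0.27 on the log2 scale in WT adenine relative to chow (edgeR adjusted p = 0.0336). That call was lost with an offset for transcript length (adjusted p = 0.135) and when any of 5 single libraries was left out (adjusted p at most 0.0673). The log2 change of Trp63 was 0.52 with an interval of -0.04 to 1.09 for EKO adenine against chow (edgeR adjusted p = 0.0794), and -0.11 with an interval of -0.56 to 0.34 for EKO against WT (edgeR adjusted p = 0.708). By the quantification's estimate, transcripts from the internal start of Trp63, which encode the N-terminally shortened p63 of basal cells, took 100% of its reads in chow, 77.2% in EKO adenine and 64.9% in WT adenine. Such splits rest on at most 47 reads per library, and in 1 library of each adenine group no read was assigned to the internal start.

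In the antibody experiment every mouse ate adenine. Sprr1a and Sprr2f were again the members with the highest level, and Upk1b, Upk2, Upk3a and Upk3b had 0 to 50 reads per library. Sprr2f was 5.93, 3.85, 4.13 and 2.56 CPM in hENPP1 mAb libraries, against 8.73, 13.7, 12.04 and 21.03 CPM in IgG libraries. Sprr1a was 16.9, 13.7, 11.9 and 9.64 CPM in hENPP1 mAb libraries, against 25.0, 19.2, 22.8 and 16.5 CPM in IgG libraries. The groups did not overlap for Sprr2f, and for Sprr1a only hENPP1 mAb replicate 1 exceeded the lowest IgG library. Sprr2f fell by 1.75 on the log2 scale with the antibody (SE 0.28, edgeR adjusted p = 0.000502) and Sprr1a by 0.68 (SE 0.17, edgeR adjusted p = 0.00615). Of the other copies, Sprr2a2 fell by 3.21 (SE 0.35, edgeR adjusted p = 7.30e-05), and the log2 change of Sprr2g was -0.25 with an interval of -0.70 to 0.19 (edgeR adjusted p = 0.310). Sprr2f took 30.9% to 34.0% of Sprr2 reads in hENPP1 mAb libraries and 40.8% to 60.3% in IgG libraries, and Sprr2a1 to Sprr2a3 took 0.965% to 1.49% with hENPP1 mAb and 4.89% to 7.55% with IgG.

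Trp63 and Psca were lower with the antibody as well. Trp63 was 0.840, 1.42, 1.31 and 1.06 CPM in hENPP1 mAb libraries, against 1.67, 1.63, 2.47 and 2.12 CPM in IgG libraries, with no overlap; it fell by 0.77 (SE 0.22, edgeR adjusted p = 0.0118). Psca was 0.148, 0.0696, 0.211 and 0.0775 CPM in hENPP1 mAb libraries, against 0.300, 0.298, 2.06 and 0.936 CPM in IgG libraries. The groups did not overlap for Psca either, but IgG replicates 3 and 4 carried most of the difference: Psca fell by 2.80 (SE 0.71, edgeR adjusted p = 0.00641), and its change was -1.99 without IgG replicate 3 (adjusted p = 0.0139). Upk1a was 0.272, 0.371, 0.305 and 0.439 CPM in hENPP1 mAb libraries, against 0.621, 0.316, 0.379 and 0.458 CPM in IgG libraries. These overlapped, with a log2 change of -0.34 and an interval of -1.004 to 0.31 (edgeR adjusted p = 0.348).

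The other 4 uroplakins had too few reads for the fit and are given as reads per library. Upk1b had 1, 1, 1 and 0 reads in hENPP1 mAb libraries, against 0, 1, 12 and 19 reads in IgG libraries. Upk3a had 0 reads in each of the 4 hENPP1 mAb libraries, against 0, 0, 17 and 4 reads in IgG libraries. Upk3b had 1, 3, 0 and 4 reads in hENPP1 mAb libraries, against 3, 9, 50 and 27 reads in IgG libraries. In all 3 genes the IgG reads came mainly from replicates 3 and 4, and IgG replicates 1 and 2 overlapped the hENPP1 mAb libraries or lay close to them. Upk2 had 0, 0, 5 and 0 reads in hENPP1 mAb libraries, against 0, 3, 2 and 5 reads in IgG libraries. Pooled over libraries, Upk1b was 8.32-fold lower with the antibody (95% exact interval 2.60 to 42.5), and Upk3a at least 5.46-fold lower when its 0 reads were set to a floor of 3 reads over the group; both cover counting error only. Over libraries, the two-sided exact permutation test of mean CPM gave p = 0.400 for Upk1b, 0.657 for Upk2, 0.429 for Upk3a and 0.0857 for Upk3b (adjusted over the 4 genes 0.571, 0.657, 0.571 and 0.343), where 4 against 4 libraries cannot go below 0.0286. Without the count filter edgeR called Upk3b (-3.02, adjusted p = 0.0105) and not Upk1b, Upk2 or Upk3a (adjusted p = 0.0665, 0.724 and 0.0551).

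Levels compared between genes used the deposited TPM, which correct for length. In EKO adenine Sprr1a (69.6 ± 15.0 TPM, SD, n = 6) and Sprr2f (46.7 ± 14.1 TPM) led, followed by Psca (13.1 ± 13.5 TPM), and Trp63 was lowest (0.320 ± 0.095 TPM). In WT adenine the order began in the same way with Sprr1a (76.7 ± 18.9 TPM, n = 6) and Sprr2f (47.8 ± 6.88 TPM), then Upk1a (2.10 ± 0.26 TPM) and Psca (1.83 ± 0.40 TPM), and the other 5 genes were at 0.552 TPM or below. In chow Psca led (10.6 ± 4.91 TPM, n = 4), followed by Upk3a (3.23 ± 0.38 TPM), Sprr1a (2.78 ± 0.68 TPM), Upk1b (2.28 ± 0.68 TPM) and Upk1a (1.83 ± 0.08 TPM), and Sprr2f was last (0.0206 ± 0.0412 TPM). Neighbours from Upk3a to Upk1a in chow, and Upk3b and Upk2 in each group of the knockout experiment, differed in mean TPM by less than the larger of their SDs.

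The same libraries tended to be high for several members. Among Upk1b, Upk2, Upk3a, Upk3b and Psca, the 10 pairwise Pearson correlations over the 12 adenine libraries of the knockout experiment, taken after the mean of each group was removed, ran from 0.397 to 0.955 with a median of 0.609. Of these, 3 passed a permutation test shuffled within groups and adjusted over all 36 pairs of members: Upk3b with Psca (r = 0.955, rho = 0.951, adjusted p = 0.00792 and 0.0117), Upk3a with Upk3b (r = 0.727, rho = 0.762, adjusted p = 0.0157 and 0.00396) and Upk3a with Psca (r = 0.683, rho = 0.720, adjusted p = 0.0157 and 0.0145). Without the 2 libraries farthest from the median of the first gene named, r was 0.870, 0.590 and 0.487 in these pairs. The other 26 pairs ran from -0.471 to 0.672 and none passed. EKO replicate 2 was the lowest EKO-labelled library for each of these 5 genes, and WT replicate 5 was the highest WT library for each of them. This order was not particular to them. EKO replicate 2 was also lowest for Upk1a (1.44 CPM), Sprr1a (28.7 CPM) and Sprr2f (10.25 CPM), and highest for Trp63 (1.66 CPM). WT replicate 5 was also the highest WT library for Upk1a (2.56 CPM).

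Keratin genes of basal urothelial cells shared part of that library order, and their part in the results above was not tested. Krt5, a keratin of basal urothelial cells, was 0.455, 1.52 and 2.23 CPM in EKO adenine libraries (lowest, median, highest), against 0, 0.316 and 2.67 CPM in WT adenine libraries and 3.07, 2.78, 3.21 and 2.33 CPM in chow libraries. WT replicate 5 supplied the highest WT value. Krt14, a further basal keratin added after its values were seen, had 0 reads in all 4 hENPP1 mAb libraries, against 0, 1, 7 and 21 reads in IgG libraries, the order of IgG libraries seen for Upk1b. Krt5 fell by 1.88 in WT adenine relative to chow (SE 0.65, edgeR adjusted p = 0.0118), and its change of 0.89 for EKO against WT had an interval of -0.41 to 2.18 (edgeR adjusted p = 0.255).

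Of 19 further urothelial genes, 17 passed the filter in the knockout experiment: 7 rose and 6 fell for WT adenine against chow, 8 rose and 3 fell for EKO adenine against chow, and 2 rose and 3 fell for EKO against WT, with median log2 changes of 0.15, 0.15 and -0.02 against medians over all genes of 0.07, 0.03 and -0.02. For WT adenine against chow these counts are close to the shares of all genes called (44.0% higher and 40.9% lower). The shares of all genes were 40.2% and 39.9% for EKO adenine against chow, and 25.1% and 21.3% for EKO against WT. Krt20, a keratin of umbrella cells that injured kidney tubules also switch on, was, like Sprr2f, near 0 in chow: 18.1, 24.3 and 35.1 CPM in EKO adenine (lowest, median, highest), 25.4, 38.4 and 53.5 CPM in WT adenine, and 0.0480, 0.367, 0.0989 and 0.405 CPM in chow. Krt20 rose by 7.39 ± 0.39 in WT adenine relative to chow (edgeR adjusted p = 1.29e-12) and fell by 0.63 in EKO relative to WT (SE 0.16, edgeR adjusted p = 0.00383). Snx31, a sorting nexin that binds uroplakins in umbrella cells, was 1.39, 2.84 and 3.02 CPM in EKO adenine, 0.377, 0.745 and 1.59 CPM in WT adenine and 5.54, 6.08 and 6.54 CPM in chow (lowest, median, highest), with a log2 change of 1.67 ± 0.27 for EKO against WT (edgeR adjusted p = 6.84e-05). In the antibody experiment Snx31 parted from the uroplakins, at 2.39 to 5.99 CPM in hENPP1 mAb libraries and 0.351 to 1.06 CPM in IgG libraries, and rose by 2.37 ± 0.36 (edgeR adjusted p = 0.000366). Of the 12 markers fitted there, 1 rose and 8 fell (27.2% and 28.0% of all genes), with falls of 1.18 for Klf5 (SE 0.21, edgeR adjusted p = 0.000888) and 0.93 for Elf3 (SE 0.17, edgeR adjusted p = 0.000943), both epithelial transcription factor genes.

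Of 35 other cornified envelope genes 11 passed the filter on low counts in the knockout experiment; 10 had no read in EKO adenine, 11 none in WT adenine and 17 none in chow. Of those 11, 6 rose and 4 fell for WT adenine against chow, where 44.0% of all genes rose and 40.9% fell. Sbsn rose by 2.51 ± 0.10 (edgeR adjusted p = 2.24e-14) and Ppl, the gene of the envelope scaffold protein periplakin, by 1.77 ± 0.11 (edgeR adjusted p = 1.12e-11). For EKO against WT 2 rose and 3 fell (25.1% and 21.3% of all genes), and Ppl fell by 0.48 (SE 0.09, edgeR adjusted p = 0.000175). With the antibody 2 rose and 3 fell of 9 fitted (27.2% and 28.0% of all genes), and Ppl fell by 0.79 (SE 0.16, edgeR adjusted p = 0.00207). Of 4 stress keratins, Krt6a and Krt6b had no read in any group of the knockout experiment, and Krt17 was the only one fitted. Relative to chow, Krt17 rose by 4.42 ± 0.57 in WT adenine (edgeR adjusted p = 7.16e-07) and by 4.37 ± 0.57 in EKO adenine (edgeR adjusted p = 1.10e-06). Its level was low: the 4 stress keratins together reached at most 1.06 CPM in EKO adenine and 0.909 CPM in WT adenine.

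Of 16 genes of the p53 family and of basal epithelial adhesion, many of them known targets of p63, 14 were fitted. For WT adenine against chow 10 rose and 3 fell (44.0% and 40.9% of all genes), with a median log2 change of 1.24 against 0.07 over all genes. Col17a1, a hemidesmosome collagen gene, rose by 3.69 ± 0.30 (edgeR adjusted p = 8.27e-10) and Itgb4, its integrin partner, by 2.96 ± 0.10 (edgeR adjusted p = 5.63e-15). For EKO against WT 1 rose and 7 fell (25.1% and 21.3% of all genes), with falls of 0.60 for Col17a1 (SE 0.18, edgeR adjusted p = 0.0100) and 0.31 for Itgb4 (SE 0.07, edgeR adjusted p = 0.00143). With the antibody 2 rose and 8 fell of 12 fitted (27.2% and 28.0% of all genes), with falls of 1.05 for Itgb4 (SE 0.23, edgeR adjusted p = 0.00260) and 0.86 for Col17a1 (SE 0.19, edgeR adjusted p = 0.00308).

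Among 10 squamous transcription factor genes, 9 were fitted. Of these, 5 rose and 2 fell for WT adenine against chow (44.0% and 40.9% of all genes), and 2 rose and 4 fell for EKO against WT (25.1% and 21.3%). Fosl1, which encodes the AP-1 subunit FRA1, was 0.862, 1.22 and 1.70 CPM in EKO adenine, 1.26, 2.10 and 2.44 CPM in WT adenine and 0, 0.0487 and 0.0507 CPM in chow (lowest, median, highest). Fosl1 rose by 5.51 ± 0.45 in WT adenine relative to chow (edgeR adjusted p = 9.32e-10), and Junb, a further AP-1 subunit gene, by 1.94 ± 0.09 (edgeR adjusted p = 1.34e-13). Both fell in EKO relative to WT, Fosl1 by 0.59 (SE 0.20, edgeR adjusted p = 0.0229) and Junb by 0.44 (SE 0.07, edgeR adjusted p = 5.70e-05). With the antibody 1 of 9 rose and 3 fell (27.2% and 28.0% of all genes). Klf4, a squamous differentiation factor gene, fell by 1.28 (SE 0.19, edgeR adjusted p = 0.000319).

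In the Ly6 family, to which Psca belongs, 11 of 16 annotated genes were fitted in the knockout experiment. Of these, 4 rose and 6 fell for WT adenine against chow (44.0% and 40.9% of all genes), and 2 rose and 1 fell for EKO against WT (25.1% and 21.3%). Lypd2 was, like Psca, higher in EKO than in WT adenine, at 0.369, 1.05 and 2.61 CPM in EKO adenine, 0.126, 0.308 and 0.563 CPM in WT adenine and 4.70, 6.62 and 8.68 CPM in chow (lowest, median, highest), and its log2 change for EKO against WT was 1.89 ± 0.43 (edgeR adjusted p = 0.00142). Against chow, Lypd2 fell in EKO adenine by 2.45 (SE 0.34, edgeR adjusted p = 2.11e-06), where Psca was not called. With the antibody 1 rose and 2 fell of 9 fitted (27.2% and 28.0% of all genes).

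Markers of tissue that a kidney sample can hold beside its cortex moved in the same direction as the uroplakins in part of the comparisons, and their part in the results was not tested. Of all genes, 25.1% rose and 21.3% fell for EKO against WT, 44.0% and 40.9% for WT against chow, and 27.2% and 28.0% with the antibody. Summed over 11 inner medullary and papillary genes, such as the collecting duct water channel genes Aqp2 and Aqp3, levels were 731 to 1173 CPM in EKO adenine, 552 to 669 CPM in WT adenine and 1184 to 1611 CPM in chow; 8 rose and 0 fell for EKO against WT and 1 rose and 7 fell for WT against chow. In the antibody experiment the sum was 383 to 448 CPM with hENPP1 mAb and 285 to 374 CPM with IgG (3 genes rose and 2 fell), while Upk1b, Upk2, Upk3a and Upk3b together were 0.0494 to 0.141 CPM with hENPP1 mAb and 0.0642 to 1.46 CPM with IgG. The 10 smooth muscle genes listed for the pelvic wall summed to 208 to 232 CPM in EKO adenine, 182 to 213 CPM in WT adenine and 169 to 186 CPM in chow. The WT and chow ranges overlapped, and which cells gave these reads was not tested. Gene by gene, 4 of 8 fitted rose and 0 fell for EKO against WT. For WT against chow 1 rose (Smtn, by 0.93) and 5 fell, Des and Lmod1 by 1.23 each. Against chow, the sum and most single genes thus differed in direction. In the antibody experiment that sum was 49.5 to 66.3 CPM with hENPP1 mAb and 60.4 to 82.4 CPM with IgG.

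Mesothelial and adipose markers were read in the same way. The 8 mesothelial genes summed to 56.8 to 69.9 CPM in EKO adenine, 49.4 to 64.9 CPM in WT adenine and 113 to 128 CPM in chow, and Msln, which defines mesothelium, was 5.32, 6.54 and 8.87 CPM in EKO adenine, 6.62, 8.01 and 14.5 CPM in WT adenine and 1.63, 2.60 and 2.97 CPM in chow (lowest, median, highest). Of the 4 mesothelial genes fitted, 2 rose (Msln and Krt19) and 2 fell (Gpm6a by 3.02 and Wt1 by 1.06 on the log2 scale) for WT adenine against chow. For EKO against WT 2 rose (Gpm6a by 0.72 and Wt1 by 0.70) and 0 fell. Msln was not called there (-0.38, edgeR adjusted p = 0.0961). Which cells of the kidney gave the reads of these genes was not tested. With the antibody 1 rose and 2 fell. Gpm6a rose by 0.74 (SE 0.10, edgeR adjusted p = 0.000146) and Msln fell by 1.22 (SE 0.36, edgeR adjusted p = 0.0140). The 8 mesothelial genes summed to 102.5 to 120.7 CPM with hENPP1 mAb and 64.3 to 90.1 CPM with IgG, without overlap. The 9 adipose genes summed to 35.0 to 48.8 CPM in EKO adenine, 35.7 to 46.5 CPM in WT adenine and 79.6 to 109 CPM in chow; Adipoq, which defines adipocytes, was at most 0.366 CPM in EKO adenine, at most 0.113 CPM in WT adenine and 0.544 to 1.62 CPM in chow. Of 8 adipose genes fitted, 3 rose (Plin4, Retn and Plin1) and 5 fell for WT adenine against chow, and 2 rose and 1 fell for EKO against WT. In the antibody experiment Adipoq had 1 read with hENPP1 mAb and 0 with IgG. The 8 kidney-defining genes summed to 5901 to 8734 CPM in EKO adenine and 3640 to 5086 CPM in WT adenine. In chow they summed to 9079 to 10630 CPM. The median sums of Upk1b, Upk2, Upk3a and Upk3b had the same order (4.73, 1.12 and 16.25 CPM), while Upk1a did not part EKO from WT. In the antibody experiment the kidney-defining genes summed to 4186 to 5844 CPM with hENPP1 mAb and 2044 to 2594 CPM with IgG. The sums of those 4 uroplakins overlapped there (0.0494 to 0.141 and 0.0642 to 1.46 CPM).

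The genes with the most similar pattern were ranked by the mean absolute difference of log2 CPM over the 16 libraries of the knockout experiment, each gene less its own mean, where a smaller value is more alike. For Upk1b they were Sprr2a2 (0.596), Gm853 (0.624) and Krt5 (0.631), against a median of 1.59 over all genes, and for Upk3a Sprr2a2 (0.574), Ccl21a (0.583) and Gm853 (0.587), against 1.65. For Psca the nearest was Upk3b (0.454, against 1.51), and for Upk3b Aldoc (0.393), AU021092 (0.401) and Igfbp5 (0.413), against 1.26. For Upk2 they included Spata20 (0.511) and Tmem100 (0.547), against 1.22. For Sprr1a they were Ppm1j (0.197), Aurkb (0.231) and Pif1 (0.241), against 1.42, and for Sprr2f Mmp7 (0.418), Il1f6 (0.430) and Ikzf4 (0.436), against 2.77. Upk1a lay nearest 2410004B18Rik (0.0948), Ap2s1 (0.110) and Pard6a (0.115), against 0.423, and Trp63 nearest Gm2026 (0.234), Pald1 (0.235) and Extl1 (0.238), against 0.471.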

How the data were processed

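Kidney RNA of 24 libraries was sequenced from stranded libraries, per the labels' protocols. The submitters' processing notes name Salmon, GRCm39, FastQC, DESeq and DESeq2; versions and settings are not given in the sources used. Each deposited file holds an estimated count of reads per transcript (an expected count, fractional and unscaled, from the authors' Salmon run) and a TPM value scaled by the authors for length and depth, per the file headers. Effective transcript lengths, also deposited per the file headers, served as an offset in an alternative.

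Of 116755 transcripts 115636 (99.0%) matched GENCODE M21 (GRCm38), used for gene names; the unmatched 1119 held 0.45% to 0.57% of reads and were left out. Counts were summed to 35413 genes and rounded. CPM were scaled by TMM within each experiment. edgeR 4.0.16 (R 4.3.3; filterByExpr, TMM, quasi-likelihood F test, Benjamini-Hochberg over all genes tested, threshold 0.05) was tested on simulated counts first. Intervals are 95%; correlations used log2 CPM with a prior count of 2 and 100000 resamples. No replicate libraries were alike within counting noise. Upper-quartile and RLE scaling, no filter, DESeq2 1.42.0, a length offset, summed Sprr2 reads, 2-group fits, a replicate block and leaving out each library were tried as alternatives.

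The 9 members and the 11 comparison lists were chosen with earlier results of these data known, so counts over them are descriptions. Named from each list were up to 4 called genes of largest log2 change with a mean of at least 1 CPM, besides all members, Sprr genes and the 3 most similar genes of each member; Krt14, Krt17, Krt6a, Krt6b, Adipoq and Retn, and Krt5, Msln, Ppl and Lypd2 in comparisons where that rule does not pick them, were added after their values were seen. Some genes that this rule picks are not reported here.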

Additional observations from a re-analysis of the deposited data

Results flagged for a closer look

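In 44 sets of 4 to 6 libraries of 1 group, 4 had a library far from the others by Dixon's criterion at the 95% level; chance alone flags about 1 in 20 such sets. Upk1b was 4.71 CPM in chow replicate 4, above the other chow libraries, the next of which was at 3.93 CPM. Upk1b was 0 CPM in hENPP1 mAb replicate 4, while the other 3 libraries held 1 read each, the lowest of them 0.0232 CPM. Upk2 was 0.117 CPM (5 reads) in hENPP1 mAb replicate 3, where the other 3 libraries held no read. Sprr2f was 0.0524 CPM (1 read) in chow replicate 2, the only chow library with a read of this gene. The last 3 of these flags rest on at most 5 reads.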

How the results depend on the processing

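Over all planned and added settings, 355 counts stayed within 1.5 times and 9 did not; of single changes 750 kept direction and side of the threshold, 33 lost the call, 5 gained one and 10 reversed. All 10 reversals were in changes that were not called, and their cause was not tested. For EKO against WT they were Upk1a without EKO replicate 2 (0.0235; range over single libraries left out -0.135 to 0.0235), Sprr1a without WT replicate 3 (0.0490), WT replicate 4 (0.0034) or EKO replicate 2 (0.0045; range -0.183 to 0.0490), and Sprr2f with upper-quartile scaling (-0.0010), total-read scaling (-0.0185), or without WT replicate 2 (-0.0019), EKO replicate 1 (-0.0403) or EKO replicate 5 (-0.0152; range -0.0403 to 0.169). For EKO against chow Psca reversed with total-read scaling (0.0760). Total-read scaling was added after the data were seen. It moved the median of all genes to 0.72 for WT against chow, 0.60 for EKO against chow, -0.10 for EKO against WT and -0.28 for hENPP1 mAb against IgG. Under it 10922 genes were called higher and 2992 lower for EKO against chow with 1 member lower (78.5% of calls higher, against 50.2%), 3688 lower for WT against chow (75.1%, against 51.8%), and 2071 higher and 7270 lower for hENPP1 mAb against IgG (22.2%, against 49.3%). For EKO against WT 37.1% of calls were higher under it, against 54.1%. Upper-quartile scaling gave 40.7% there and 31.1% with the antibody, and moved the medians to 0.30, 0.19, -0.08 and -0.19 in the order above. Among the lost calls, some of them named with the results, Upk1b, Upk2 and Upk3b for EKO against chow were not called under total-read scaling (adjusted p = 0.0717, 0.265 and 0.178). Nor was Upk2 called there under upper-quartile scaling (0.0693), or Upk1b with DESeq2 (0.0711, and 0.0569 for EKO against WT) or the length offset (0.0790). Trp63 for EKO against chow was called with upper-quartile (0.0239) and total-read scaling (0.000866) and in a fit of the 2 groups alone (0.0401). Leaving out each library in turn gave 3 to 5 members higher for EKO against WT (3 without EKO replicate 5 or WT replicate 1), 3 to 6 lower for EKO against chow (3 without chow replicate 1), 2 to 3 higher and 6 to 6 lower for WT against chow, and 4 to 4 lower with the antibody. Libraries with the same replicate number did not deviate together over all genes (correlations of at most 0.0684), so the numbers were not treated as pairs. A pairing of weak effect would not show in this check. With the replicate number as a block 4154 genes rose and 3368 fell for EKO against WT, and Trp63 for WT against chow had an edgeR adjusted p of 0.0663. With Upk1b, Upk2 and Upk3a at 0 to 54 reads per adenine library, depth limits their precision, and a count of 0 allows up to 3 reads.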
